A study of Homo sapiens with 24 samples.

Results

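The genes described are 10 genes of the actin cytoskeleton and of its transcriptional control by serum response factor, taken as the rows of the raw count matrix named ACTB, ACTG1, ACTN1, TAGLN, MYL9, TPM1, VCL, FLNA, SRF and ZYX. They are 10 of 58051 genes in the matrix, and 9 of them are among the 18852 genes that passed the filter on low counts and were tested. The tenth, MYL9, was too low to test. Serum response factor, the product of SRF, is a transcription factor that binds a short DNA element called the CArG box. When free actin monomers are used up by filament growth, coactivators of the MRTF family leave actin, enter the nucleus and join SRF at genes that themselves encode actins and actin-binding proteins. In neurons the same factor also works with partners of the TCF family at immediate early genes, and actin filaments shape growth cones, dendritic spines and the membrane skeleton of the axon.

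RNA was measured by sequencing in neurons differentiated from LUHMES cells, a clonal line of human mesencephalic precursors immortalised with a v-myc transgene that tetracycline shuts off, so that every library comes from the same genetic background. All cultures grew on poly-L-ornithine and fibronectin, were differentiated with tetracycline, cAMP and GDNF, and held 1% DMSO during the 6 h exposure. The exposed groups were MS275 at 5 µM (entinostat, which blocks class I histone deacetylases), paraquat at 5 µM, MPP at 5 µM (methylphenylpyridinium, a complex I inhibitor taken up by the dopamine transporter), ziram at 2 µM (a fungicide made of zinc and dithiocarbamate), rotenone at 1 µM (a complex I inhibitor), 6-HD at 1 µM (6-hydroxydopamine) and methylmercury at 0.5 µM, and the vehicle group received DMSO without a toxicant. Each of the 8 groups had 3 libraries.

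Library totals ranged from 9.69 to 46.9 megareads counted. Of 10 pan-neuronal markers, 10 had reads in every group, with summed levels of 5781 to 7382 CPM (counts scaled to a common library size). The dopaminergic markers SLC6A3, the dopamine transporter, and TH, the enzyme that makes DOPA, averaged 635.7 and 50.8 CPM in DMSO, whereas LMX1A and FOXA2, transcription factors of midbrain dopaminergic neurons, had 0 counts in all 24 libraries. CPM are taken after TMM scaling of the library totals, errors are SDs over 3 libraries unless named as SE, and differences were tested with edgeR's quasi-likelihood test over all 24 libraries with Benjamini-Hochberg adjustment over all genes tested. A gene is said to have risen or fallen where the edgeR adjusted p was under 0.05. Exposures lasted 6 h on bulk cultures, so fewer cells of a kind and less RNA per cell cannot be told apart.

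The 2 cytoplasmic actin genes are shown first because their counts carry nearly all the weight of the set and because their coding sequences are so alike that reads could have been exchanged between them. In GENCODE 29 on GRCh38, ACTB lies on chr7:5527147-5563784 on the minus strand and ACTG1 on chr17:81509971-81523847 on the minus strand. Both coding sequences are 1128 bases long and share 1029 bases (91.22%), and their longest identical stretch is 59 bases. The first 60 coding bases, with the 10 bases that differ in capitals, are:
ACTB: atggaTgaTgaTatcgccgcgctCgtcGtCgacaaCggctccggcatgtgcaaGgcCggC
ACTG1: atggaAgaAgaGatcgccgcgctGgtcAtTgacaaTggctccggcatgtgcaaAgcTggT
The matrix also lists 30 processed copies of actin genes, of which 23 had reads, and together they held between 0.0265% and 0.108% of the number of counts of ACTB and ACTG1 in a library. How reads that fit several genes were counted is not given in the sources used here, so values of the actin pair carry that uncertainty.

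RefSeq promoter windows of the genes were searched for the CArG box, the element SRF binds, on both strands. RefSeq promoter entries (GRCh38.p14) were found for 7 of the 10 genes; ACTB, TAGLN and MYL9 had none. Within the 250 bases before the start of the entry, a CArG box occurred in ACTG1 and FLNA, against 407 of 35116 promoters (1.16%). In both the box begins 94 bases before the start. These windows, at chr17:81512800-81513049 on the minus strand for ACTG1 and chrX:154374635-154374884 on the minus strand for FLNA, are printed 5′ to 3′ with the box in capitals because they are the windows of the set that hold it:
ACTG1: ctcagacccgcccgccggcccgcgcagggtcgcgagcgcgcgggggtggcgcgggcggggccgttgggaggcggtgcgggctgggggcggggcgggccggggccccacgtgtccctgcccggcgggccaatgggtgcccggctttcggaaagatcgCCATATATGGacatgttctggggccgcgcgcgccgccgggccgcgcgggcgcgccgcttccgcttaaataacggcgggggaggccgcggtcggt
FLNA: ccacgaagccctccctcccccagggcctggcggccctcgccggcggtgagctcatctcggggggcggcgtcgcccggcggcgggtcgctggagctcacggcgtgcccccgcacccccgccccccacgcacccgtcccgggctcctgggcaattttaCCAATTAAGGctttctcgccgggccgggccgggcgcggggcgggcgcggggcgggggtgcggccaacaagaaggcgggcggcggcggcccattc
A match describes letters and is not evidence of binding, and boxes farther from the start were not searched. Of the 7 windows 6, those of ACTG1, ACTN1, TPM1, VCL, SRF and ZYX, lie inside the wider GENCODE 29 span of their gene, since the RefSeq entry starts downstream of the first GENCODE base, and they are therefore not the region before the whole gene. How far inside differed by gene. The ZYX window starts at 143381095, near the first base of the gene at 143381080. Those of SRF and VCL start at 43172146 and 73997866, in genes that start at 43171299 and 73995193. That of TPM1 starts at 63048239, in a gene that starts at 63042632. The ACTN1 window ends at 68938201, in a gene on the minus strand that ends at 68979440. A window without a box therefore does not show that the region before the gene lacks one. The window of FLNA overlaps its GENCODE span by 4 bases.

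In vehicle neurons the set spanned a wide range of levels per length of exon, expressed in TPM (counts per base, scaled to the same sum in every library) over the merged exons of each gene. ACTG1, encoding gamma-actin, averaged 7057 ± 202 TPM and ranked 6 among all genes, and ACTB, encoding beta-actin, averaged 2617 ± 111 TPM and ranked 15. Next came FLNA, whose product filamin A crosslinks filaments, at 94.7 ± 5.56 TPM. SRF itself followed at 37.3 ± 3.3 TPM, ahead of VCL at 27.7 ± 1.29 TPM. TPM1 stood at 17.1 ± 0.764 TPM and ZYX at 15.2 ± 2.81 TPM, and the ranges of these neighbours, 16.3 to 17.8 for TPM1 and 12 to 17.4 for ZYX, overlapped. ACTN1, which encodes the crosslinker alpha-actinin 1, was at 8.91 ± 0.464 TPM and TAGLN, which encodes the smooth muscle protein transgelin, at 0.693 ± 0.361 TPM. The other neighbours in this order did not overlap between libraries. MYL9, the regulatory light chain of smooth muscle myosin, had 0 counts in the DMSO libraries.

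The 2 actins made up between 0.585% and 0.929% of all counts of a library, so the share of counts in the 10 genes is close to an actin measurement. That share was 0.97%, 0.973% and 0.875% in the MS275 libraries, against 0.771%, 0.803% and 0.776% in the DMSO libraries. All MS275 libraries lay above all DMSO libraries. The mean difference was 0.156 percentage points, with an exact two-sided permutation p of 0.1, the smallest that 3 against 3 libraries allow, and 0.525 after adjustment over 7 comparisons.

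The members' response differed by toxicant. MS275 changed 6 of the 9 genes tested, 4 upward (ACTB, ACTG1, TPM1, VCL) and 2 downward (SRF, ZYX). MPP raised 3 (VCL, SRF, ZYX) and rotenone raised VCL. Paraquat, ziram, 6-HD and methylmercury changed 0 of 9 by edgeR, and limma-voom and DESeq2 also gave 0 of 9 for each. These counts stand beside the share of all tested genes that each exposure changed. In MS275 against DMSO that share was 43.2%, with 20.1% higher and 23% lower, so the count of 6 of 9 is no property of this set by itself. In MPP against DMSO it was 10.8%, with 5.77% higher and 5.02% lower; 53.5% of these calls were higher with TMM scaling and 27.5% with library totals, which moved the median of all genes by -0.09 on the log2 scale and left MPP 2 called members, VCL and ZYX. In rotenone against DMSO it was 5.52%, with 2.76% higher and 2.76% lower. It was 0% for paraquat, 0.53% for ziram, 0.0106% for 6-HD and 0.286% for methylmercury. The count in MPP was 1 without DMSO library 1 or MPP library 2. The count in rotenone was 3 without rotenone library 1, when ACTG1 and SRF also passed, and 0 without rotenone library 3 or any DMSO library. The members' median log2 fold change was 0.07 in MS275, 0.16 in MPP and 0.16 in rotenone, against 0.04, 0.00 and -0.01 over all genes tested.

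**Figure D1:**
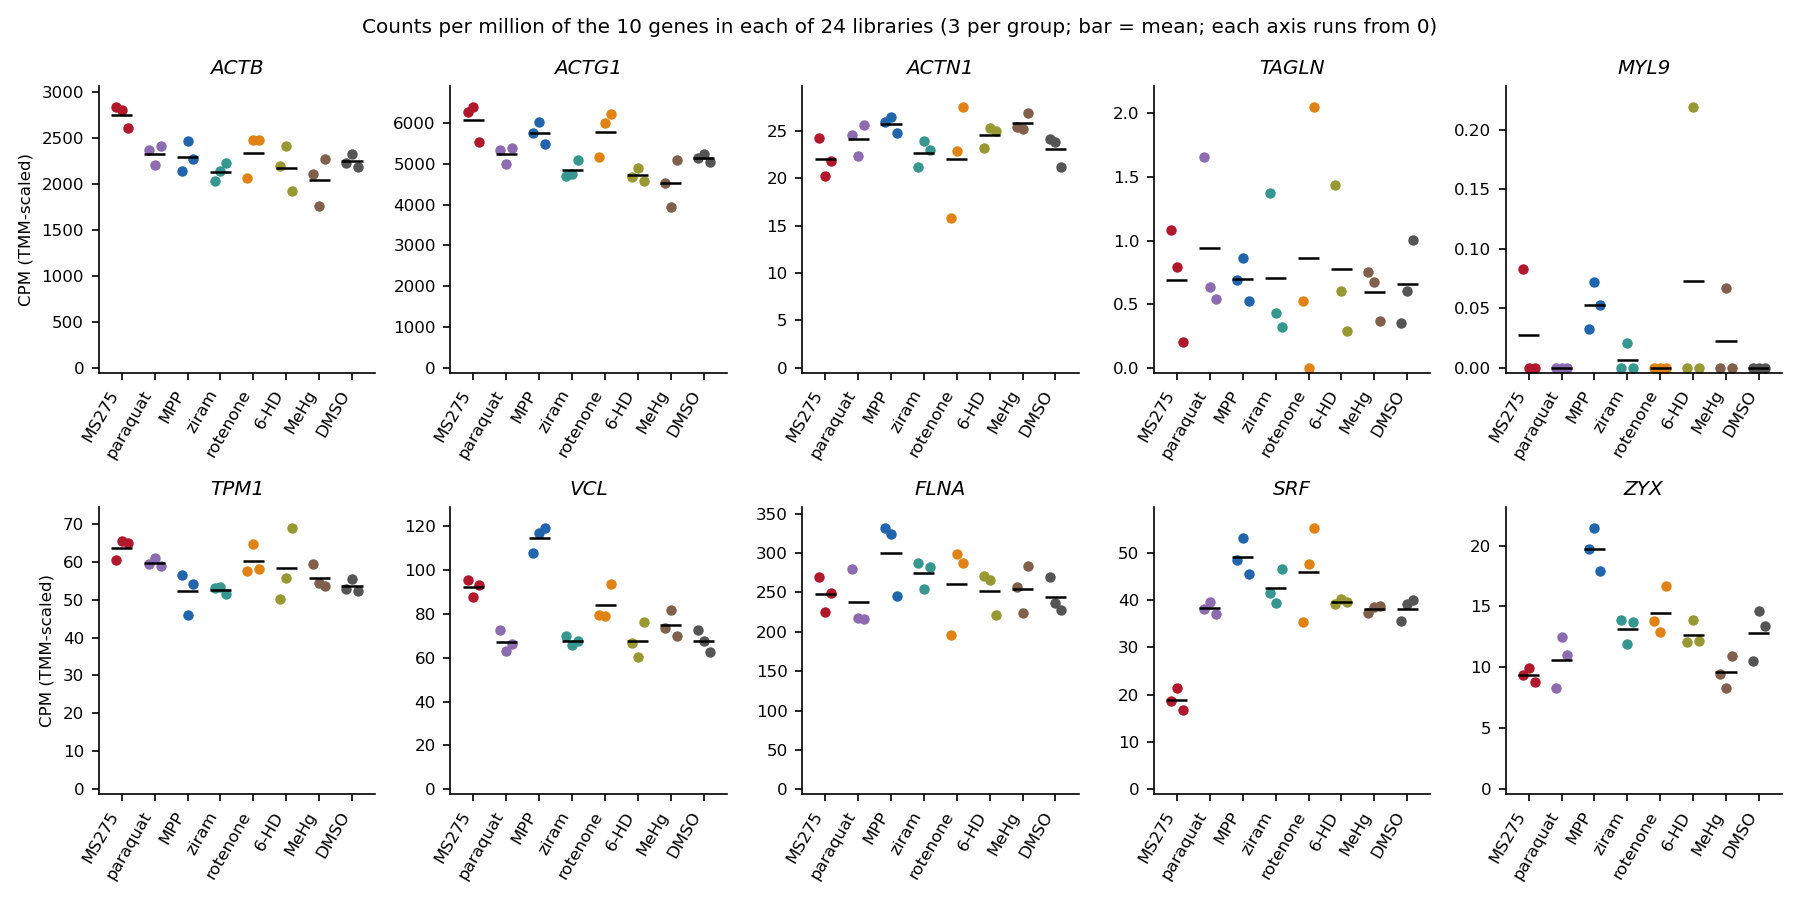
CPM of each of the 10 genes (vertical axes, linear, from 0) in the 24 libraries, by group along the horizontal axis (MeHg is methylmercury), with a bar at each group mean. SRF was lowest in the MS275 libraries (16.7 to 21.4 CPM, against 35.5 to 39.9 CPM in DMSO), and VCL and ZYX were highest in the MPP libraries.

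SRF, the transcription factor of the set, was the member that moved most. It had 18.7, 21.4 and 16.7 CPM in the MS275 libraries, against 35.5, 39.1 and 39.9 CPM in the DMSO libraries. The groups were far apart, and the highest MS275 library was well below the lowest DMSO library. The fold change was 0.497, or -1.01 on the log2 scale (SE 0.122, 95% interval -1.26 to -0.76, edgeR adjusted p = 8.02e-08), and it passed the threshold in all 14 alternative analyses. MPP libraries had 48.5, 53.1 and 45.4 CPM, all above DMSO. The log2 fold change in MPP was 0.36 (SE 0.117, adjusted p = 0.0451), and the call was lost in 8 of 14 alternatives, including each time 1 of the 6 libraries was left out, when the adjusted p ranged from 0.0503 to 0.203.

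In rotenone SRF had 35.4, 47.6 and 55.1 CPM. The first of these libraries lay just under the lowest DMSO library and the other two above the highest. The log2 fold change was 0.26 and did not pass (adjusted p = 0.222); without rotenone library 1 it was 0.43 and passed (adjusted p = 0.0134). That library was also the lowest of the 3 rotenone libraries for ACTB, ACTG1, ACTN1 and FLNA. In the other exposures SRF stayed near the vehicle level, with means of 38.2 ± 1.28 CPM in paraquat, 42.4 ± 3.66 CPM in ziram, 39.6 ± 0.516 CPM in 6-HD and 38.2 ± 0.826 CPM in methylmercury, against 38.2 ± 2.34 CPM in DMSO. The 95% intervals of these log2 differences reached from -0.24 to 0.24 in paraquat and methylmercury, from -0.09 to 0.39 in ziram and from -0.19 to 0.29 in 6-HD.

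Both actins rose under MS275. ACTB had 2836, 2797 and 2601 CPM in MS275 libraries, against 2227, 2326 and 2179 CPM in DMSO libraries. The groups did not overlap, and the log2 fold change was 0.29 (SE 0.086, adjusted p = 0.00661), a rise of 22.3% that held in all 14 alternatives. ACTG1 had 6273, 6400 and 5550 CPM in MS275 libraries, against 5151, 5235 and 5055 CPM in DMSO libraries. Here too the groups did not overlap. The log2 fold change was 0.24 (SE 0.075, adjusted p = 0.0106), a rise of 18%, which fell short of the threshold without MS275 library 2 (adjusted p = 0.067).

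In the other exposures neither actin passed. ACTG1 averaged 5759 ± 277 CPM in MPP and 5795 ± 558 CPM in rotenone, against 5147 ± 90 CPM in DMSO, with log2 fold changes of 0.16 (adjusted p = 0.178) and 0.17 (adjusted p = 0.193). Without rotenone library 1 the log2 fold change in rotenone was 0.25 and passed (adjusted p = 0.0327). In methylmercury ACTG1 averaged 4526 ± 569 CPM, with libraries from 3953 to 5090 CPM that overlapped DMSO, and a log2 fold change of -0.19 (adjusted p = 0.312). ACTB means lay between 2041 CPM in methylmercury and 2335 CPM in rotenone, against 2244 ± 75 CPM in DMSO.

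The balance between the 2 actins can be read within a library, free of scaling. The ratio of ACTB to ACTG1 counts was 0.371, 0.409 and 0.414 in MPP libraries and 0.399, 0.412 and 0.398 in rotenone libraries, against 0.432, 0.444 and 0.431 in DMSO libraries. Every library of both complex I inhibitors lay below every DMSO library. The log2 ratio differed by -0.13 in MPP and by -0.11 in rotenone, each with an exact two-sided permutation p of 0.1, the smallest that the design allows, and 0.35 after adjustment over 7 comparisons, so neither passes. In the remaining groups the mean ratio ran from 0.439 in ziram to 0.460 in 6-HD, and the exact permutation p from 0.2 to 0.7. Single libraries of these groups also lay below every DMSO library, 6-HD library 3 at 0.419 and ziram library 1 at 0.4306. The 6-HD libraries were spread from 0.419 to 0.492. The same DMSO libraries serve the MPP and rotenone comparisons.

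**Figure D2:**
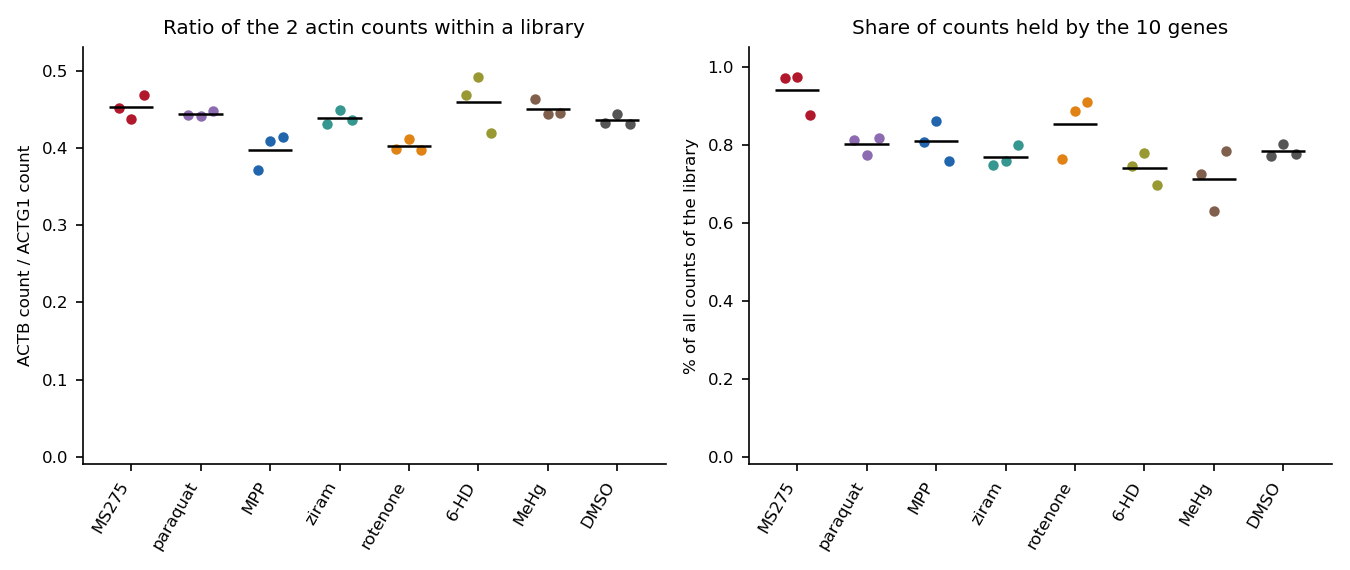
Left, the count of ACTB divided by the count of ACTG1 in each library; right, the percentage of all counts of the library held by the 10 genes (linear axes from 0, 3 libraries per group, bar at the mean, MeHg is methylmercury). The MPP and rotenone ratios lie at 0.371 to 0.414, under the DMSO ratios of 0.431 to 0.444, and the MS275 shares lie above the DMSO shares.

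VCL and ZYX, whose products are found where actin filaments meet sites of adhesion, changed in MPP and MS275. VCL encodes vinculin, which couples integrins and cadherins to actin under tension, and lies on chr10:73995193-74121363 on the plus strand. It had 107.9, 117.2 and 119.1 CPM in MPP libraries and 95.7, 87.9 and 93.3 CPM in MS275 libraries, against 72.5, 67.6 and 62.6 CPM in DMSO libraries. The 3 groups did not overlap. The rise was 70% in MPP (log2 0.77, SE 0.094, adjusted p = 1.33e-06) and 36.7% in MS275 (log2 0.45, SE 0.094, adjusted p = 0.000248), and both passed in all 14 alternatives.

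In rotenone VCL had 79.7, 79.1 and 93.8 CPM, all above the DMSO libraries. The log2 fold change of 0.32 (SE 0.095, adjusted p = 0.0427) was lost in 8 of 14 alternatives, among them each omission of a DMSO library and of rotenone library 3 (adjusted p from 0.0541 to 0.212) and the fit of the 2 groups alone (adjusted p = 0.188). The VCL means in paraquat, ziram and 6-HD were 67.4, 67.8 and 67.8 CPM, against 67.6 CPM in DMSO, and the methylmercury mean was 75.1 CPM (log2 0.15, adjusted p = 0.564). Exons of VCL overlap those of AP3M1, a subunit gene of an adaptor complex on the other strand, and the strand setting of the counting is not given. AP3M1 had a log2 fold change of 0.16 in MPP (adjusted p = 0.361) and fell by 0.41 in MS275 (adjusted p = 0.00155), where VCL rose.

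ZYX encodes zyxin, a LIM-domain protein that gathers at strained actin filaments and focal adhesions, and lies on chr7:143381080-143391111 on the plus strand. It had 19.7, 21.4 and 17.95 CPM in MPP libraries and 9.34, 9.93 and 8.84 CPM in MS275 libraries, against 10.5, 14.6 and 13.4 CPM in DMSO libraries. MPP libraries were all above DMSO and MS275 libraries all below it. The log2 fold change was 0.61 in MPP (SE 0.149, adjusted p = 0.0071), which was lost without DMSO library 1 (0.0696) or MPP library 2 (0.0546). In MS275 it was -0.46 (SE 0.155, adjusted p = 0.0159), which was lost without DMSO library 2 (0.124), DMSO library 3 (0.0684) or MS275 library 1 (0.0558). In methylmercury ZYX had 9.5, 8.34 and 11 CPM and a log2 fold change of -0.42 that did not pass (adjusted p = 0.253, unadjusted p = 0.0105).

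The remaining filament genes, TPM1, FLNA and ACTN1, gave few calls. TPM1, which encodes a tropomyosin that lies along the filament, had 60.3, 65.3 and 65.0 CPM in MS275 libraries, against 52.8, 55.5 and 52.3 CPM in DMSO libraries. The groups did not overlap, but the rise of 18.8% (log2 0.25, SE 0.099, adjusted p = 0.0434) was lost in 7 of 14 alternatives, with an adjusted p of up to 0.179. FLNA had 331, 324 and 245 CPM in MPP libraries, against 269, 237 and 228 CPM in DMSO libraries. The third MPP library lay inside the DMSO range, and the log2 fold change of 0.30 did not pass (adjusted p = 0.152), although it did with no filter on low counts (0.0226) and with the 2 groups fitted alone (0.0319). In MS275 FLNA averaged 248 ± 22 CPM, against 244.7 ± 21.5 CPM in DMSO (95% interval of the log2 difference -0.25 to 0.29). ACTN1 passed in no comparison, with group means between 22.1 CPM in rotenone and 25.9 CPM in methylmercury, against 23.1 CPM in DMSO. Its lowest and highest libraries were both in the rotenone group, at 15.9 and 27.6 CPM.

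The smooth muscle genes of the set were at or near the floor. TAGLN had 26, 24 and 3 counts in MS275 libraries and 13, 0 and 25 in rotenone libraries, against 5, 15 and 34 in DMSO libraries. The libraries of a group were far apart. The 95% interval of the log2 difference in MS275 ran from -1.47 to 1.62, so these libraries do not exclude a change within that range. Exons of TAGLN overlap the convertase gene PCSK7 on the other strand, which averaged 28.2 CPM in DMSO. MYL9 had 12 reads in 575.9 megareads, in 7 of the 21 exposed libraries; the DMSO limit of 3 counts over the group is 0.0413 CPM, and no fold change is given.

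**Figure D3:**
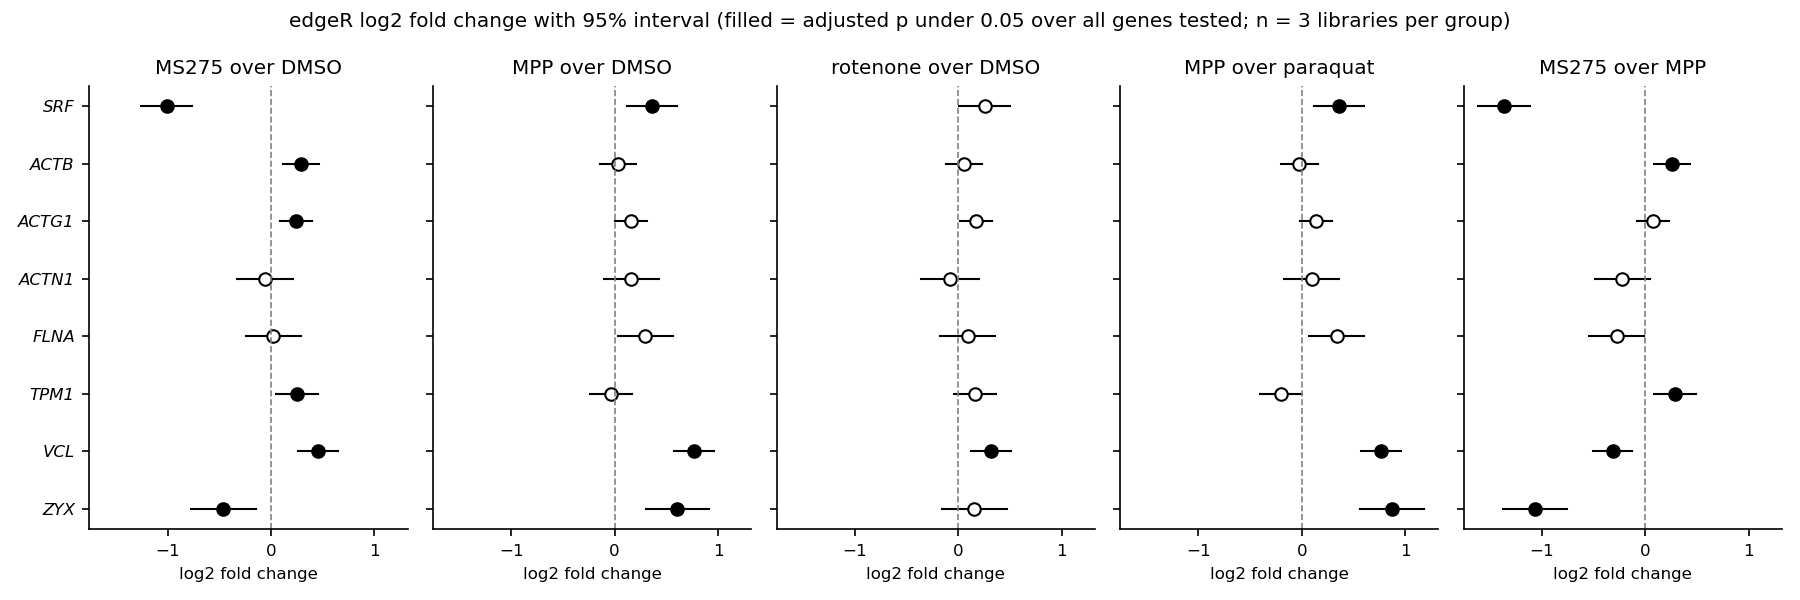
Log2 fold change (horizontal axes, first-named group over the second) with its 95% interval for 8 of the 9 genes tested; TAGLN, with intervals too wide for the axis, is left out. Filled points passed an edgeR adjusted p under 0.05 over all genes tested, and SRF and ZYX stand on opposite sides of 0 in MS275 and MPP.

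MPP and paraquat are both methylated pyridinium cations given at the same 5 µM for the same 6 h, and differ in that MPP carries a phenyl ring where paraquat carries a further methylpyridinium ring. This was the pair of related compounds compared. Against paraquat, MPP raised 3 of 9 members, where 11% of all tested genes differed, 6.04% higher and 4.94% lower. VCL had 107.9, 117.2 and 119.1 CPM in MPP libraries, against 72.9, 62.9 and 66.5 CPM in paraquat libraries (log2 0.77, SE 0.094, adjusted p = 1.33e-06). ZYX had 19.7, 21.4 and 17.95 CPM in MPP libraries, against 8.33, 12.5 and 11 CPM in paraquat libraries, a difference of 0.87 on the log2 scale (SE 0.151, adjusted p = 0.000206). Both held in all 14 alternatives, and neither gene's groups overlapped.

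SRF differed less, with 48.5, 53.1 and 45.4 CPM in MPP libraries, against 38.2, 39.5 and 37.0 CPM in paraquat libraries. The groups did not overlap, but the log2 difference of 0.36 (adjusted p = 0.0455) was lost in 8 of 14 alternatives. Neither actin passed, with log2 differences of -0.02 for ACTB (95% interval -0.20 to 0.15) and 0.14 for ACTG1 (-0.02 to 0.29, adjusted p = 0.269). ACTG1 had 5752, 6039 and 5486 CPM in MPP libraries, against 5330, 4988 and 5388 CPM in paraquat libraries, which do not overlap. TPM1 was 12.7% lower on average in MPP than in paraquat, which did not pass (adjusted p = 0.223), although these groups did not overlap either. FLNA averaged 300 ± 47.9 CPM in MPP, against 237.7 ± 36.8 CPM in paraquat, a log2 difference of 0.34 that did not pass (adjusted p = 0.0944) but did in 4 of 14 alternatives, with an adjusted p of 0.0055 to 0.309 over the 14. MPP and paraquat were each also set against the same DMSO libraries, where MPP raised VCL, SRF and ZYX and paraquat gave log2 values of -0.00, 0.00 and -0.27 for them.

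MS275 and MPP were set against each other after SRF and ZYX had been seen to move in opposite directions, at the same 5 µM and 6 h. The same libraries had given those directions, so the adjusted p-values of SRF and ZYX in this comparison add no independent support. SRF was lower in MS275, with a log2 difference of -1.37 (SE 0.122, adjusted p = 1.83e-10). ZYX had a log2 difference of -1.07 (SE 0.153, adjusted p = 9.23e-07) and VCL one of -0.31 (SE 0.093, adjusted p = 0.00584). ACTB was higher in MS275 by 0.26 (adjusted p = 0.0122) and TPM1 by 0.29 (adjusted p = 0.0171). In all 5 of 9 members differed, 2 higher and 3 lower in MS275, beside 50.8% of all tested genes, 24.9% higher and 25.9% lower. ACTB lost its call without MPP library 1 (0.0852), VCL with scaling to library totals (0.068) and TPM1 in 3 of 14 alternatives.

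Beyond the members, 10 lists of actin and SRF genes held 125 further genes that were tested. In MS275 against DMSO 35 of them rose and 30 fell (52%), in MPP 10 rose and 1 fell (8.8%) and in rotenone 9 rose and 0 fell (7.2%). Ziram raised 2 (1.6%), and paraquat, 6-HD and methylmercury changed 0 of 125. MPP against paraquat gave 11 higher and 0 lower (8.8%). Of all tested genes 43.2% were called in MS275, 10.8% in MPP, 5.52% in rotenone, 0.53% in ziram and 11% in MPP against paraquat.

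Some targets of the SRF and MRTF pair beyond the members rose under several exposures. In MS275 8 of 17 rose and 2 fell (median log2 0.26, against 0.04 over all genes tested), beside 20.1% higher and 23% lower of all tested genes. CNN2, encoding the actin-binding protein calponin 2, averaged 32.4 ± 4.15 CPM in MS275, 9.46 ± 0.744 CPM in MPP, 8 ± 0.922 CPM in ziram and 10.2 ± 1.3 CPM in rotenone, against 3.88 ± 0.576 CPM in DMSO. It rose in all 4, by log2 fold changes of 3.05 (adjusted p = 2.55e-11), 1.28 (0.000479), 1.03 (0.0331) and 1.39 (0.000546). THBS1, the matrix glycoprotein thrombospondin 1, rose by 3.25 on the log2 scale in MS275 (adjusted p = 6.32e-06), to 8.71 CPM, against 0.938 CPM in DMSO. TPM4, a tropomyosin gene like TPM1, moved against it, with 209 ± 4.15 CPM in MS275, against 284 ± 8.62 CPM in DMSO (log2 -0.44, adjusted p = 9.15e-06), and AMOTL2, a junction protein gene, fell by 0.78 on the log2 scale.

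In MPP 4 of 17 rose and 0 fell, namely CNN2, FHL2, TNS1 and MYH9. Of all tested genes 5.77% were higher and 5.02% lower in MPP, and 2.76% higher and 2.76% lower in rotenone. FHL2, a LIM-domain cofactor that is itself an SRF target, averaged 30.1 ± 2.66 CPM in MPP, 42.5 ± 0.925 CPM in MS275 and 24.9 ± 3 CPM in rotenone, against 15.5 ± 0.72 CPM in DMSO. In rotenone 5 of 17 rose and 0 fell (median log2 0.36, against -0.01 over all genes tested), among them FILIP1L (log2 0.96, adjusted p = 2.13e-05) and TPM4 (log2 0.38, adjusted p = 0.00116), which was lower in MS275. ACTA1, the skeletal muscle actin gene, averaged 13.4 ± 1.81 CPM in rotenone, against 5.31 ± 1.14 CPM in DMSO (log2 1.33, adjusted p = 0.000962), while ACTC1, the cardiac actin gene, stayed at 44.9 CPM in rotenone, against 42.6 CPM in DMSO (log2 0.08, adjusted p = 0.743).

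Immediate early genes of the SRF and TCF type split by gene. Beside them, 20.1% of all tested genes were higher and 23% lower in MS275, and 5.77% and 5.02% in MPP. In MS275 4 of 11 rose and 3 fell; ATF3 averaged 16.1 ± 4.98 CPM in MS275, against 6.41 ± 0.683 CPM in DMSO (log2 1.35, adjusted p = 3.98e-06), whereas JUNB averaged 6.73 ± 0.695 CPM in MS275, against 16.3 ± 1.07 CPM in DMSO (log2 -1.27, adjusted p = 1.58e-08). In MPP 3 of 11 rose and 0 fell, with NR4A1 at 8.45 ± 0.729 CPM in MPP, against 4.29 ± 0.661 CPM in DMSO (log2 0.99, adjusted p = 0.00218). FOS and EGR1, the best known of the group, were low throughout, at 0.278 and 0.934 CPM in DMSO, and neither passed in MS275, MPP or rotenone.

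Of 9 partners of SRF, 3 rose and 2 fell in MS275, beside 20.1% higher and 23% lower of all tested genes. ELK1, a TCF, averaged 11.6 ± 1.37 CPM in MS275, against 25.6 ± 0.393 CPM in DMSO (log2 -1.14, adjusted p = 4.31e-07), and its relative ELK3 17.4 ± 3.79 CPM in MS275, against 6.08 ± 0.544 CPM in DMSO (log2 1.51, adjusted p = 5.45e-07). The MRTF genes, listed under their older names MKL1 and MKL2, did not pass, at log2 0.04 and 0.38 in MS275 (adjusted p = 0.81 and 0.121). SCAI, a repressor of MRTF activity, averaged 26.1 ± 6.44 CPM in MS275, against 35.1 ± 0.823 CPM in DMSO (log2 -0.43, adjusted p = 0.0179).

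**Figure D4:**
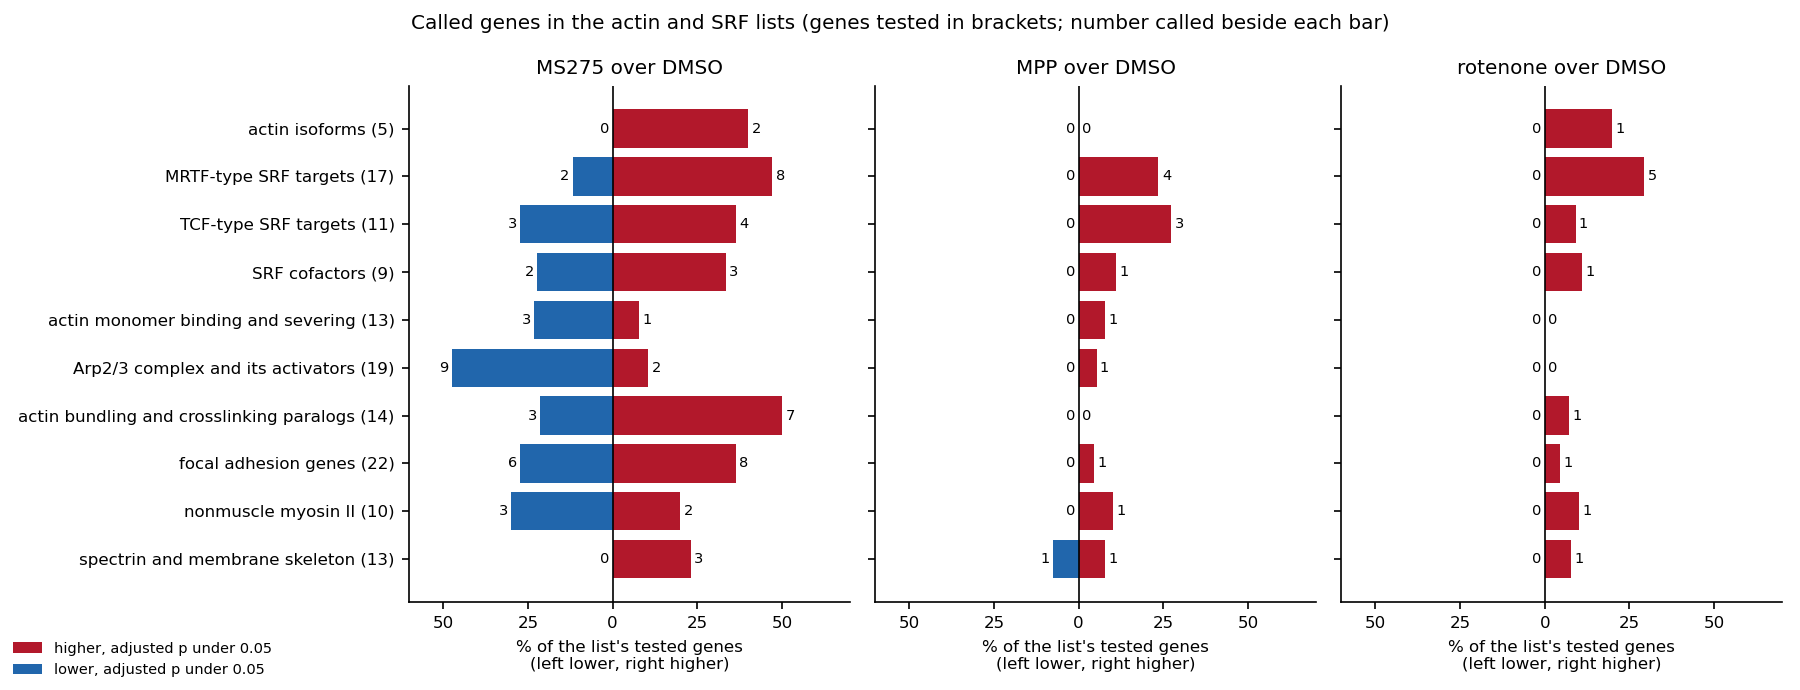
Percentage of the tested genes of each list that were called higher (right, red) or lower (left, blue) at an edgeR adjusted p under 0.05, for MS275, MPP and rotenone over DMSO, with the number called beside each bar and the number tested in brackets. In MS275 the Arp2/3 list shows 9 lower and 2 higher, and in rotenone the MRTF-type targets show 5 higher and 0 lower.

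In the list of the Arp2/3 complex, which nucleates branched filaments, and its activators, 2 of 19 rose and 9 fell in MS275 (median log2 -0.20, against 0.04 over all genes tested), where 20.1% of all tested genes were higher and 23% lower. ACTR3, a core subunit, averaged 173 ± 1.59 CPM in MS275, against 280.5 ± 1.91 CPM in DMSO (log2 -0.69, adjusted p = 3.04e-08), and ABI1, of the WAVE complex that activates it, 32 ± 0.317 CPM in MS275, against 50.9 ± 0.224 CPM in DMSO (log2 -0.67, adjusted p = 6.4e-07). WASF2 and WASF3, further WAVE subunits, rose by 0.44 and 0.43 on the log2 scale. Of the monomer binding and severing genes 1 of 13 rose and 3 fell in MS275. TMSB4X, a monomer-sequestering thymosin, averaged 1262 ± 163 CPM in MS275, against 965 ± 29.7 CPM in DMSO (log2 0.39, adjusted p = 9.68e-05), and PFN2, the neuronal profilin, 202.9 ± 2.06 CPM in MS275, against 307 ± 7.37 CPM in DMSO (log2 -0.60, adjusted p = 5.98e-07). TMSB10, a thymosin gene with a higher mean of 2429 CPM in DMSO, did not rise in MS275.

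Of 10 myosin II genes 2 rose and 3 fell in MS275, beside 20.1% higher and 23% lower of all tested genes. MYH9, a nonmuscle heavy chain, rose in MS275, MPP and rotenone by log2 values of 0.42, 0.50 and 0.44, and its paralog MYH10 fell by 0.59 in MS275. The MYH9 libraries of rotenone overlapped those of DMSO, at 191.5 ± 43.2 CPM in rotenone, against 140.8 ± 14.45 CPM in DMSO (edgeR adjusted p = 0.0332). Those of MS275 and MPP did not overlap DMSO.

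Among paralogs of the crosslinking members, 7 of 14 bundling and crosslinking genes rose in MS275 and 3 fell. Of all tested genes 20.1% were higher and 23% lower in MS275, 5.77% and 5.02% in MPP, and 2.76% and 2.76% in rotenone. LCP1, encoding a plastin best known from blood cells, averaged 7.44 ± 0.658 CPM in MS275, against 1.39 ± 0.309 CPM in DMSO (log2 2.44, adjusted p = 3.78e-06). ACTN4, the other nonmuscle alpha-actinin gene, averaged 130 CPM in MS275, against 104 CPM in DMSO (log2 0.32, adjusted p = 0.04), beside the log2 value of -0.06 for ACTN1 (adjusted p = 0.75). DBN1, the actin-binding protein drebrin of dendritic spines, had a log2 fold change of -0.39 in MS275 (adjusted p = 0.00572). Of the focal adhesion genes, the company of VCL and ZYX, 8 of 22 rose and 6 fell in MS275, among them PARVB (log2 2.63) and TNS1 (2.03) upward and FERMT2 (-0.47) and ITGAV (-0.49) downward. In MPP 1 of 22 rose, TNS1, at 6.3 ± 1.38 CPM, against 3.36 ± 0.425 CPM in DMSO (log2 0.90, adjusted p = 0.016). In rotenone 1 of 22 rose, TRIP6, a close relative of ZYX, at 22.6 ± 5.98 CPM, against 15.7 ± 0.427 CPM in DMSO (log2 0.51, adjusted p = 0.0355). The spectrin and membrane skeleton list had 3 of 13 higher and 0 lower in MS275, led by ADD3 (log2 0.93), an adducin gene.

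Markers of other cell types and of dopaminergic neurons were measured beside these results. Of all tested genes 20.1% were higher and 23% lower in MS275, 5.77% and 5.02% in MPP, and 2.76% and 2.76% in rotenone. Of 9 fibroblast and mesenchymal markers 5 were tested and 5 rose in MS275, with summed levels of 112 to 116.7 CPM in MS275, 76.5 to 83.6 CPM in MPP and 45.2 to 71.2 CPM in rotenone, against 46.5 to 51.1 CPM in DMSO; in MPP 2 of 5 rose and in rotenone 0 of 5. Most of the fibroblast and mesenchymal sum in DMSO was PDGFRB, at 43.0 CPM, and POSTN had 0 counts in DMSO. The sum of 7 smooth muscle markers was 96.7 to 117.5 CPM in MS275, 68 to 71.8 CPM in MPP and 69.7 to 75.5 CPM in rotenone, against 51.1 to 62.8 CPM in DMSO. Of the 5 tested 2 rose in MS275, 1 in MPP and 1 in rotenone, and 0 fell. Most of the sum in DMSO was DES, at 31.2 CPM. MYH11 and CNN1, which define that cell type, had 37 and 79 counts in all 24 libraries. The sum of 6 endothelial markers was 182 to 326 CPM in MS275, 48.5 to 60.3 CPM in MPP and 38.2 to 65.4 CPM in rotenone, against 53.5 to 63.3 CPM in DMSO. Most of this sum in DMSO was CLDN5, at 57.4 CPM. Of the 4 endothelial markers tested 3 rose in MS275, and 0 were called in MPP or rotenone. The sum of 8 cycling markers was 417.9 to 465 CPM in MS275, 497 to 532 CPM in MPP and 488 to 537 CPM in rotenone, against 477 to 513 CPM in DMSO. That of 8 neural precursor markers was 232 to 257 CPM in MS275, 168 to 189.8 CPM in MPP and 214 to 267 CPM in rotenone, against 160.4 to 177 CPM in DMSO. Of these 8, 6 rose and 1 fell in MS275, 0 rose and 1 fell in MPP, and 1 rose and 1 fell in rotenone. Their median log2 fold change in rotenone was -0.12. The 9 astrocyte and oligodendrocyte markers summed to 187 to 221 CPM in MS275, 171 to 176 CPM in MPP and 179.6 to 199 CPM in rotenone, against 172 to 189.7 CPM in DMSO, with MOG at 0 counts in DMSO. Most of this sum in DMSO was OLIG2, at 114.4 CPM, and OLIG1, at 43.5 CPM. Of the 7 glial markers tested 5 rose and 0 fell in MS275 (median log2 1.21, against 0.04 over all genes tested). In MPP 0 were called, and in rotenone 1 rose and 0 fell. The 10 dopaminergic markers summed to 1037 to 1250 CPM in MS275, 745 to 887 CPM in MPP and 894 to 1238 CPM in rotenone, against 649.8 to 768 CPM in DMSO. Most of this sum in DMSO was SLC6A3, at 635.7 CPM. Of the 8 dopaminergic markers tested 5 rose and 1 fell in MS275, 0 rose and 2 fell in MPP, and 1 rose and 0 fell in rotenone. The part of all these markers in the changes of the 10 genes was not tested.

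For the 3 members with the largest called changes, the genes of most similar pattern were sought among 11053 others by the root mean square difference of centred group means of log2(CPM + 0.5) over the 8 groups (24 libraries), where 0 is an identical pattern. For SRF, whose group means spanned 1.36 log2 units, these were NFKB1 (0.056) and TLK1 (0.066). For ZYX, which spanned 1.03, they were TUBGCP3 (0.066) and FAM189B (0.089), and for VCL, which spanned 0.76, SCPEP1 (0.044) and CTXN3 (0.048). The nearest of 7 fellow members (TAGLN and MYL9 left out) was ZYX at 0.285 for SRF, FLNA at 0.246 for ZYX and ACTG1 at 0.191 for VCL. These were farther in each case, but 7 candidates give far fewer chances of a near pattern than 11053. Many genes lie near any pattern among so many candidates, so the distances describe these libraries and carry no test.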

How the data were processed

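Per the labels' protocols, polyadenylated RNA passed 2 rounds of ribosomal RNA depletion before TruSeq library preparation. STAR, HTSeq, DESeq and the build GRCh38 are named per the submitters' processing notes, without roles; versions, annotation and the use of strand are not stated in what was used here. Raw counts and a normalized signal were deposited by the authors for 58051 genes in 24 libraries, and the signal returned to whole counts in 100% of values (tolerance 0.01) after division by 1 factor per library. The raw counts were used, with totals of 9.69 to 46.9 megareads.

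Counts were fitted with edgeR 4.0.16 (R 4.3.3; TMM, default filter on low counts, 18852 genes, 8 group coefficients, 16 residual degrees of freedom). limma 3.58.1 (voom) and DESeq2 1.42.0 were alternatives, as were other scalings and filters, the 2 groups alone, a replicate block and the omission of each library. The procedure was tested on simulated data. Exact permutation tests were used for the actin ratio and the share of counts. TPM used merged exons of GENCODE 29 (57447 genes matched). Sequences came from GENCODE 29 and RefSeq. The libraries are labelled as triplicate biological samples of a clonal line, so p-values measure the spread between these cultures. No 2 libraries of a group agreed within sampling noise (chi-square per degree of freedom 4.19 to 27.58 over 24 pairs). In rotenone library 1 gave 24.48 and 27.58 with libraries 2 and 3, which gave 5.36 with each other. In MS275 library 3 gave 21.31 and 22.52 with libraries 1 and 2, which gave 6.06 with each other. In MPP library 3 gave 20.75 and 15.98 with libraries 1 and 2, which gave 6.60 with each other. The pair of methylmercury libraries 2 and 3 gave 19.95.

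The members, lists, tests and alternatives were chosen with earlier results of these data known. Named genes were the 10 members, up to 2 genes higher and 2 lower by fold change per list and comparison among those called that reached 2 CPM on the higher side, and the 2 nearest genes in pattern for 3 members; other genes named were chosen after their values were seen. The 8 marker lists were pan-neuronal, dopaminergic, neural precursor, cycling, glial (astrocyte and oligodendrocyte), smooth muscle, fibroblast and endothelial. 1 further list that had been drawn up is not reported here.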

Additional observations from a re-analysis of the deposited data

How the results depend on the processing

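Over 9 comparisons, 1125 alternative values of the 81 tested member values kept their side of the threshold in 1072 cases, were no longer called in 42 and were newly called in 11, and 0 called values reversed. The number of members called in MPP against DMSO lay between 1 and 2 when 1 library was left out. In rotenone against DMSO it lay between 0 and 3 in the same way, and was 0 with library totals, 0 with no filter on low counts and 0 with the 2 groups alone, against 1. The cause was not tested. The differences in the actin ratio and in the share of counts kept their sign in every alternative run for MPP, rotenone and MS275.

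The replicate numbers of the labels showed no pairing common to all exposures: deviations of same-numbered libraries correlated by -0.16 to 0.13 over 21 pairs, and 2 pairs exceeded 0.1. In MS275 the same-numbered pairs gave 0.064, 0.099 and 0.105, and the other pairs lay between -0.08 and -0.001. Correlations over 3 libraries a group cannot decide whether cultures were paired. With the replicate block, rotenone called 0 members, and TPM1 in MS275 had an adjusted p of 0.0549.

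Counts of calls over all genes, which form the background of the members, moved more. With the 2 groups alone they were 3983 in MPP, against 2034, 211 in rotenone, against 1041, 586 in ziram, against 100, 1 in 6-HD, against 2, and 3541 in MPP over paraquat, against 2070. With no filter they were 160 in ziram, 249 in methylmercury, against 54, 18 in 6-HD and 3 in paraquat, against 0, and with DESeq2 165, 208 and 8 in ziram, methylmercury and 6-HD. With the replicate block 6-HD had 0. Without 1 library they ranged from 1142 to 1430 in MPP, 483 to 1616 in rotenone, 40 to 74 in ziram, 7 to 170 in methylmercury, 0 to 2 in 6-HD and 1157 to 1476 in MPP over paraquat. With library totals 26.5% of the calls in MPP over paraquat were higher, against 55%, and 88.7% in ziram, against 77%.

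TAGLN, with 0 to 42 counts in a library, and MYL9, with 12 reads in all, were too low for small differences to be detected.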
